A study of Mus musculus with 4 samples.

Results

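The transcripts of 8 leukocyte chemoattractant receptors were examined in mouse bone marrow-derived macrophages that had received a mimic of miR-204-3p. The set comprised Cx3cr1, Ccr1, Ccr2, Ccr7, Ccrl2, Cxcr4, Fpr1 and Fpr2, taken by gene symbol, and all 8 were found among the 54532 genes of the count table. The 2 groups were macrophages transfected with miR-204-3p mimics (2 libraries) and macrophages transfected with a mimics negative control (2 libraries), both harvested after 24 h. Cells of both groups had been grown from marrow for 7 days with medium conditioned by L929 cells, a fibroblast line that supplies macrophage colony-stimulating factor, and both had been transfected, so no group shows these cells without transfection. The sources used here do not state the strain, sex or age of the mice. They also do not say whether replicate libraries stem from different mice or dishes, so the p-values measure the spread between these libraries, which may be technical. The comparison asks which transcripts differ when macrophages receive this microRNA.

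Chemokine receptors and formyl peptide receptors are membrane-spanning G protein-coupled receptors that steer leukocytes along gradients of attractants. Most signal through inhibitory G proteins and their beta and gamma subunits to phosphoinositide 3-kinase, phospholipase C and Rac, and are switched off by receptor kinases, arrestins and RGS proteins. In the monocyte and macrophage lineage they govern release from the marrow, entry into inflamed tissue and, for formyl peptide receptors, the response to bacteria and damaged mitochondria. Ccrl2 is an atypical member that binds the attractant chemerin without a chemotactic signal of its own.

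The mature sequence of miR-204-3p and the matches to its seed are shown because the seed is the part of a microRNA that pairs with target transcripts. The sequence below was taken from RefSeq (GRCm38.p6, chr19:22750649-22750669, plus strand), with bases 2 to 8, the seed, in capitals. The labels do not print the sequence of the transfected mimic.
mmu-miR-204-3p: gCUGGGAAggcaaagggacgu

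The longest annotated 3′ untranslated region of each receptor (GENCODE M21) was searched for the reverse complement of bases 2 to 8 (a 7-base match) and of bases 2 to 7 (a 6-base match). Cx3cr1 was the receptor with a 7-base match, and such a match was present in 22.5% of the 11282 tested protein-coding genes with an annotated region. At least 1 match of 6 bases was present in Cx3cr1, Ccr2, Ccr7 and Ccrl2, against 47.9% of the tested genes, and none was found in Ccr1, Cxcr4, Fpr1 or Fpr2. Both Cx3cr1 matches and the Ccrl2 match are printed 5′ to 3′ with the matched bases in capitals, since Cx3cr1 was among the receptors that fell and Ccrl2 was the receptor that rose. A match describes the letters and does not show that the site is bound.
Cx3cr1, 7 bases, chr9:120049434-120049440, minus strand, mm10: tggggttggaTTCCCAGcaagcatagt
Cx3cr1, 6 bases, chr9:120049684-120049689, minus strand, mm10: cagaagtctcTCCCAGcctgttgctc
Ccrl2, 6 bases, chr9:111054970-111054975, minus strand, mm10: atgtctgtcaTCCCAGcactctagga

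The libraries held 15899235 to 16837826 counts each, and the 13186 genes that passed a low-count filter were tested. Levels are given in CPM, read counts relative to the library total after adjusting that total by TMM (trimmed mean of M-values), and each log2 fold change sets the miR-204-3p mimic over the control mimic and carries its standard error. Macrophage markers were detected in every library, but 6 of the 7 tested ones fell and Fcgr1 rose, where 29.7% of all tested genes fell and 31.1% rose. The summed level of the macrophage markers was 3438 and 3454 CPM in the mimic libraries against 17170 and 19030 CPM in the control libraries. Mertk, the remaining marker, had 0 and 2 counts in the mimic libraries and 9 and 10 in the control libraries. Markers of T and NK cells, of mast cells and basophils and of fibroblasts were too rare for any to be tested, and each of these lists summed to at most 0.654 CPM in a mimic library and 0.485 CPM in a control library.

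With the miR-204-3p mimic, most of these receptors were lower. Of 6 tested receptors 5 fell and 1 rose (edgeR quasi-likelihood test, adjusted p under 0.05), where 60.8% of all tested genes were called, 29.7% lower (3921) and 31.1% higher (4101). Scaling by library size alone turned that split into 2513 lower and 6151 higher genes. Cx3cr1, Cxcr4 and Ccr1 fell, with log2 fold changes of −7.41, −3.02 and −2.82, Fpr2 was not detected in the mimic libraries, and Ccrl2 was 1.34-fold higher. The median log2 fold change of the 6 was −2.92, also with Fpr2 at its counting bound, beside 0.04 over all tested genes. The calls of Ccr2 and Ccrl2 were lost under some alternatives, and DESeq2 called 4 receptors lower and 0 higher. Ccr7 and Fpr1 were too rare to be tested. Fpr2 passed the low-count filter through the control libraries alone and Cx3cr1 exceeded it in 1 of 2 mimic libraries, so the count of lower receptors is a description. In RNA from a whole culture, fewer cells of a type and less RNA per cell cannot be told apart.

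**Figure D1:**
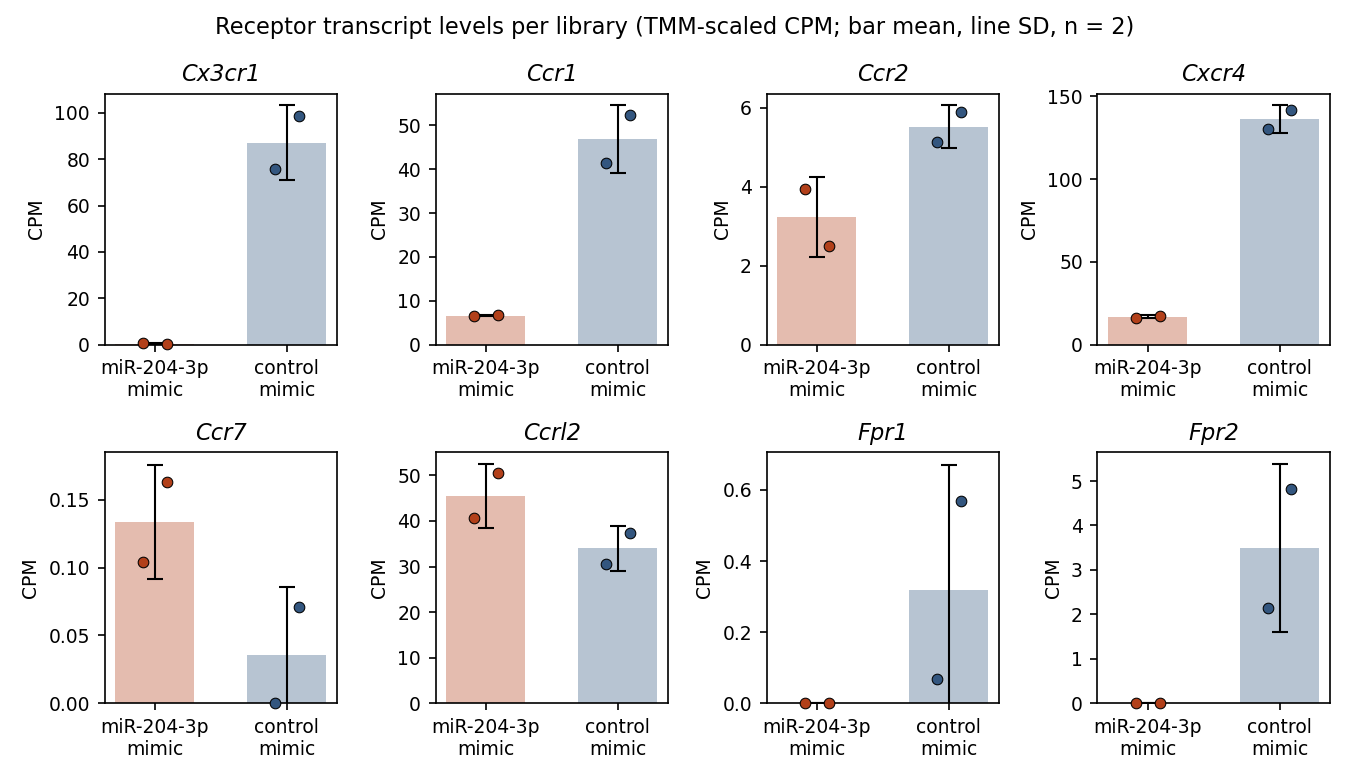
TMM-scaled CPM of each receptor in each library, with the 2 miR-204-3p mimic libraries on the left and the 2 control mimic libraries on the right of each panel; bars are means, lines SDs (n = 2) and points libraries, and each panel has its own scale from 0. The mimic libraries lie below the control libraries for Cx3cr1, Ccr1, Ccr2, Cxcr4, Fpr1 and Fpr2, and above them for Ccrl2 and Ccr7, with at most 3 counts per library for Ccr7 and 8 for Fpr1.

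The fractalkine receptor gene Cx3cr1 (ENSMUSG00000052336, mm10 chromosome 9, 119901616 to 120069879, minus strand) had 13 and 6 counts in the mimic libraries against 1091 and 1386 in the control libraries. These are 0.676 and 0.327 CPM in the mimic libraries and 75.6 and 98.4 CPM in the control libraries. The groups did not overlap, which held for 80.7% of all tested genes and for all 6 tested receptors, and the gap between them was wider than the spread within either. The log2 fold change was −7.41 ± 0.27 (edgeR adjusted p = 7.2e-11), a 169.7-fold lower level, and with 19 mimic counts in all it moved to −8.03 without mimic replicate 1. Its ligand gene Cx3cl1 encodes the membrane-anchored chemokine fractalkine. Cx3cl1 had 4 and 0 counts in the mimic libraries against 25 and 14 in the control libraries. It was lower as well (edgeR adjusted p = 0.0013, log2 fold change −3.59). Without mimic replicate 1 the value was −7.43, and without mimic replicate 2 it was −2.70. Cx3cl1 passed the low-count filter through the control libraries alone, so its call, also among the lower ligands, is a description. Exons of the antisense gene model Gm33858 overlap 78 of the 4505 exonic bases of Cx3cr1, and without a stated strand setting their reads cannot be told apart.

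Of the inflammatory CC chemokine receptors, Ccr1 fell far more than Ccr2, although the difference between them was not tested. Ccr1 (ENSMUSG00000025804, chromosome 9, 123962124 to 123968692, minus strand), a receptor for Ccl3, Ccl5 and related chemokines, had 125 and 124 counts in the mimic libraries against 598 and 736 in the control libraries. At 6.63 ± 0.185 CPM in mimic and 46.9 ± 7.66 CPM in control libraries (SD, n = 2 each), it was 7.06-fold lower (log2 fold change −2.82 ± 0.18, edgeR adjusted p = 1.4e-08). Ccr2 (ENSMUSG00000049103, chromosome 9, 124101950 to 124113557, plus strand), the receptor for Ccl2 that monocytes need to leave the marrow, was rare, with 76 and 46 counts in the mimic libraries against 74 and 83 in the control libraries. As CPM these were 3.95 and 2.51 in the mimic libraries and 5.13 and 5.89 in the control libraries, which do not overlap, but counts divided by library size alone do, at 4.51 and 2.82 against 4.50 and 5.22. The log2 fold change of Ccr2 was −0.77 ± 0.30 with an adjusted p of 0.041 in edgeR. This call was lost with DESeq2 (adjusted p = 0.088), with library size alone (log2 fold change −0.40, adjusted p = 0.26), without mimic replicate 2 (−0.51) and without control replicate 2 (−0.66), and the value was −1.14 without mimic replicate 1.

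Ccr1 and Ccr2 lie 133 kb apart in a cluster of chemokine receptor genes on chromosome 9, and other genes of the region were also examined. Ccr1l1, the closest receptor gene to Ccr1, was at 0 in every library, and Ccr3 had 1 count in 1 mimic library. Fyco1, a gene of the same region that encodes an adaptor of autophagic vesicles, had 249 and 228 counts in the mimic libraries against 323 and 299 in the control libraries (log2 fold change −0.78, adjusted p = 0.0017).

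Cxcr4 (ENSMUSG00000045382, chromosome 1, 128588199 to 128592293, minus strand), the receptor for Cxcl12 that retains leukocytes in the marrow, had the highest counts of the set in control libraries. It had 310 and 320 counts in the mimic libraries against 1878 and 1999 in the control libraries, or 16.8 ± 0.94 CPM with the miR-204-3p mimic and 136 ± 8.38 CPM with the control mimic (SD, n = 2 each). The groups lay far apart and the replicates close together, and the log2 fold change of −3.02 ± 0.14 (8.1-fold lower, edgeR adjusted p = 4.2e-10) stayed between −3.106 and −2.655 under the 10 alternatives tried. Cxcl12 itself was at 0 in every library. Mif, whose product also binds Cxcr4, had 495 and 371 CPM in the mimic libraries against 1530 and 1451 CPM in the control libraries, and fell by 1.78 ± 0.15 on the log2 scale (adjusted p = 1.4e-07).

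Ccr7 (ENSMUSG00000037944, chromosome 11, 99144196 to 99155077, minus strand), which guides dendritic cells to lymph nodes, was close to absent. It had 2 and 3 counts in the mimic libraries against 0 and 1 in the control libraries, a ratio of 3.79 with a counting interval of 0.424 to 179, so no difference was detectable at this depth. Its ligand genes Ccl19 and Ccl21a were at 0 in every library. A count of 0 in a library allows up to 3 counts, or 0.156 to 0.213 CPM, and these floors and intervals cover counting error only.

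Ccrl2 (ENSMUSG00000043953, chromosome 9, 111054486 to 111057519, minus strand), the atypical chemerin receptor gene, was the receptor that rose. It had 781 and 926 counts in the mimic libraries against 440 and 527 in the control libraries, or 40.6 and 50.5 CPM in the mimic libraries against 30.5 and 37.4 CPM in the control libraries. The groups did not overlap, but the gap between them was smaller than the spread within either group. The log2 fold change was 0.42 ± 0.16 (edgeR adjusted p = 0.036), and the call was lost with DESeq2 (0.41, adjusted p = 0.064), without mimic replicate 2 (0.23) and without control replicate 1 (0.28). With library size alone the value was 0.79. Rarres2, which encodes chemerin, was at 0 in every library.

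Neither formyl peptide receptor of the set was detected with the miR-204-3p mimic. Fpr2 (ENSMUSG00000052270, chromosome 17, 17887824 to 17893952, plus strand), a receptor for formylated peptides, serum amyloid A and annexin A1, had 0 counts in both mimic libraries against 31 and 68 in the control libraries. With the mimic group set at its floor of 3 counts in all, Fpr2 was at least 43.5-fold lower (edgeR adjusted p = 9e-06). Without control replicate 2 the bound was 26.9-fold. Fpr2 passed the low-count filter through the control libraries alone, so its call is a description. Fpr1 (ENSMUSG00000045551, chromosome 17, 17876471 to 17883940, minus strand), the high-affinity receptor for bacterial formylated peptides, had 0 counts in both mimic libraries against 1 and 8 in the control libraries, at least 3.955-fold lower and not tested, with 8 of the 9 counts in control replicate 2. Without control replicate 1 the bound for Fpr1 was 7.119-fold, and without control replicate 2 both groups were under the floor. Both genes lie 3.88 kb apart, and the third formyl peptide receptor gene of the locus, Fpr3, had 0 counts in the mimic libraries against 0 and 2 in the control libraries. Exons of Fpr3 overlap 48 of the 1296 exonic bases of Fpr2 on the same strand. Of the 50-base words of Fpr2, 31.5% occur in transcripts of other genes, 6.33% in Fpr3 and 28.4% in the gene model Gm5966. No gene named Gm5966 was found in the count table, so how reads of the shared words were assigned is uncertain. Fpr2 and Fpr3 together had 0 and 0 counts in the mimic libraries against 31 and 70 in the control libraries. Anxa1, which encodes annexin A1, had 84.4 and 82.6 CPM in the mimic libraries against 145.5 and 161.6 CPM in the control libraries, and fell (adjusted p = 3.2e-05, log2 fold change −0.88 ± 0.13).

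Neutrophil and monocyte markers are given beside these receptors because neutrophils carry Fpr1 and Fpr2, and monocytes carry Ccr2 and Cx3cr1. Of 10 neutrophil markers 4 were tested and 3 fell, where 29.7% of all tested genes fell and 31.1% rose. The summed level of the 10 was 15.8 and 11.6 CPM in the mimic libraries against 174 and 241 CPM in the control libraries, with Ly6g and Retnlg at 0 in every library. Prtn3 (133.9 and 174.4 CPM) and Csf3r (38.11 and 63.99 CPM) made up nearly all of the control sum. Members with more counts in the mimic libraries were S100a8, not called, with 13 and 17 counts against 6 and 8 in the control libraries, Camp with 6 and 6 against 1 and 0, Mpo with 1 and 8 against 0 and 0, S100a9 with 1 and 0 against 0 and 0, and Ltf with 1 and 1 against 1 and 0, the last 4 not tested. Of 7 monocyte markers 1 was tested, Hp, which had 0 counts in both mimic libraries against 661 and 1009 in the control libraries, while F13a1 was at 0 in every library. The summed monocyte list, nearly all Hp in the control libraries, was 0.208 and 0 CPM in the mimic libraries against 46.4 and 72.4 CPM in the control libraries. Dendritic cell markers summed to 4.78 and 5.78 CPM in the mimic libraries against 47.1 and 38.1 CPM in the control libraries. Of 4 tested ones 2 were lower, beside 29.7% of all tested genes, and Cd209a was at 0. Most of the control sum was Itgax (42.68 and 33.52 CPM), which macrophages can also express. Xcr1, tested and not called, had 15 and 26 counts in the mimic libraries against 6 and 9 in the control libraries. Untested members with more counts in the mimic libraries were Fscn1 (8 and 17 against 0 and 2) and Ccl22 (0 and 5 against 2 and 0). Flt3, also untested, had 0 and 1 against 0 and 0. B cell markers summed to 3.38 and 3.82 CPM in the mimic libraries against 250.6 and 226.5 CPM in the control libraries. Of 4 tested ones 4 were lower, again beside 29.7% of all tested genes. Ms4a1 was at 0, and most of the control sum was Ighm (245.4 and 219.9 CPM). Pax5, not tested, had 0 and 2 counts in the mimic libraries against 0 and 0 in the control libraries. Camp stands in both the neutrophil and the ligand list, and Xcr1 in both the dendritic cell and the other receptor list. Prtn3, Elane, Hp, Siglech, Cd79b and Ighd, with at most 7 counts in a mimic library, passed the low-count filter through the control libraries alone. Their calls, and the counts of lower markers that include them, are therefore a description. The part of other cells in the receptor results was not tested.

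**Figure D2:**
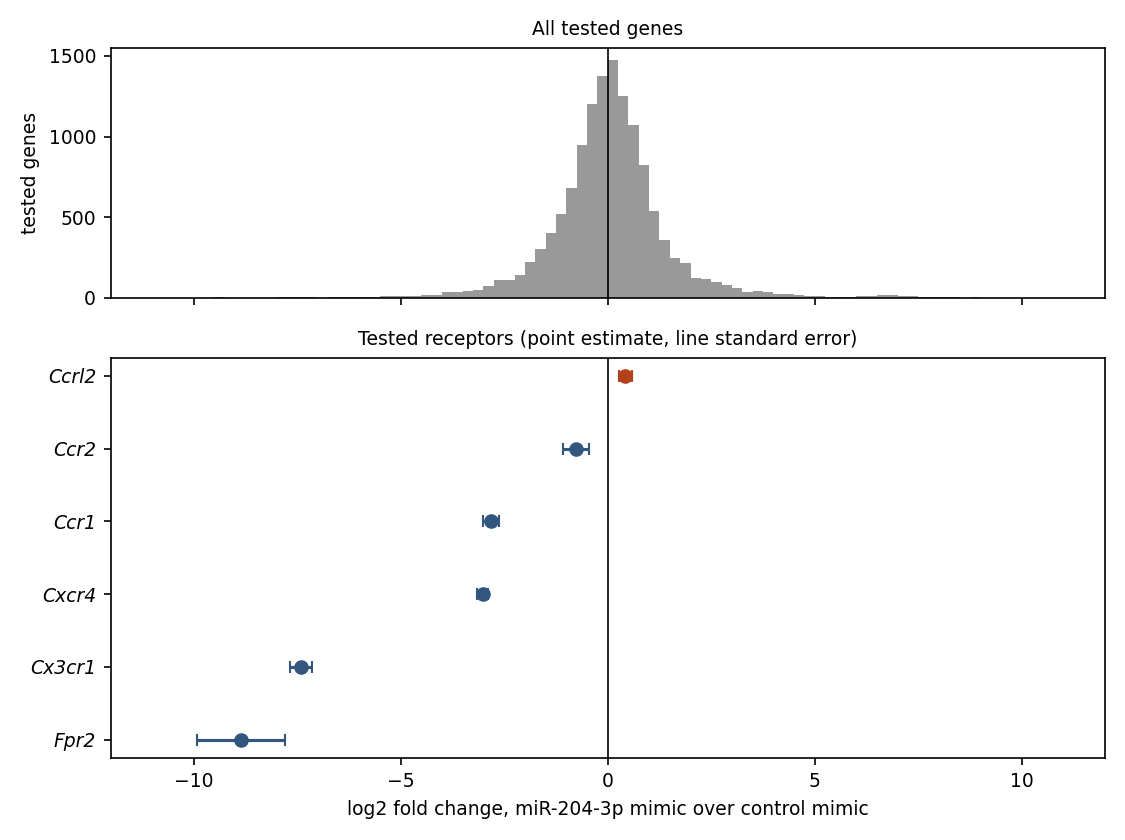
Log2 fold changes (miR-204-3p mimic over control mimic) of all 13186 tested genes as a histogram of gene numbers, above those of the 6 tested receptors with their standard errors. Ccrl2 lies at 0.42, Ccr2 at −0.77, and the others at −2.82 or below; the fitted value of Fpr2, which had 0 mimic counts, depends on the prior count and is no bound.

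Divided by gene length, the order of the receptors differed between the groups. In the mimic libraries Ccrl2 came first with 17.5 ± 2.69 CPM per kb (SD, n = 2), followed by Cxcr4 with 9.28 ± 0.52, Ccr1 with 2.34 ± 0.0654 and Ccr2 with 0.478 ± 0.151 CPM per kb. Cx3cr1 with 0.15 and 0.0726 CPM per kb and Ccr7 with 0.0525 and 0.0827 CPM per kb overlapped at the low end, and the formyl peptide receptors were at 0. In the control libraries Cxcr4 came first with 75.2 ± 4.63 CPM per kb, followed by Cx3cr1 with 19.3 ± 3.585, Ccr1 with 16.5 ± 2.705 and Ccrl2 with 13.1 ± 1.89 CPM per kb. Cx3cr1 (16.8 and 21.9 CPM per kb) overlapped Ccr1 (14.6 and 18.5), and Ccr1 lay just above Ccrl2 (11.7 and 14.4), so these neighbours did not differ beyond their spread. Fpr2 with 2.69 ± 1.463 and Ccr2 with 0.815 ± 0.0803 CPM per kb followed, and Fpr1 and Ccr7 came last. Among tested genes, the level per kb of Cxcr4 stood at percentile 61.6 in the mimic libraries and 93.8 in the control libraries, and that of Cx3cr1 at 1.91 and 77.6.

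Ccrl2 made up most of the receptor counts in the mimic group. Before scaling by length it held 59.8% of 1307 and 64.98% of 1425 receptor counts in the mimic libraries (Wilson 95% intervals 57.1 to 62.4% and 62.5 to 67.4%), against 10.7% of 4113 and 10.96% of 4808 in the control libraries (9.79 to 11.7% and 10.1 to 11.9%). Cx3cr1 held 0.995% and 0.421% in the mimic libraries against 26.5% and 28.8% in the control libraries. The summed level of the 8 genes was 67.9 and 77.7 CPM in the mimic libraries and 285 and 341.5 CPM in the control libraries.

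**Figure D3:**
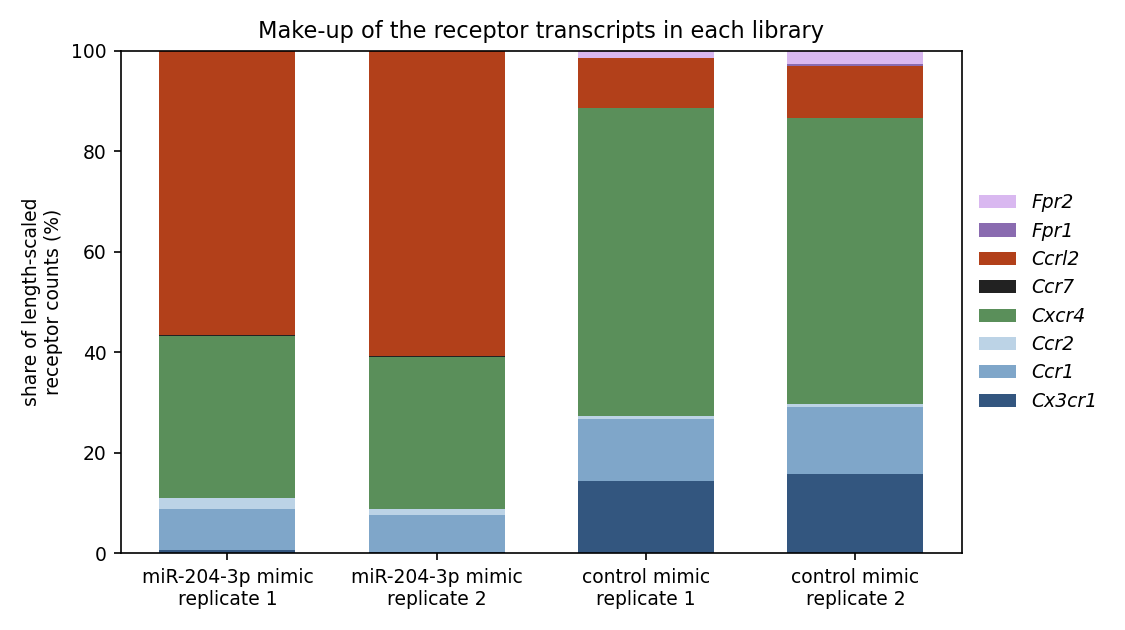
Share of each receptor in the summed length-scaled counts of the 8 receptors, in percent, as 1 stacked bar per library. Ccrl2 takes 56.6% and 60.7% with the miR-204-3p mimic against 9.98% and 10.4% with the control mimic, where Cxcr4 takes 61.2% and 56.8%.

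Promoters of 3 receptors with sizeable counts are shown because their levels went in different directions. RefSeq starts (GRCm38.p6) were available for 7 of the 8 genes, in 9 windows from 250 bases before to 50 after a start. None of the 9 windows held GAGGAAGT (a PU.1 motif, present in 3.2% of 32851 windows), the interferon-stimulated response element (3.44%) or the kappa B motif (0.155%) on either strand, which says only that these letters are not in these windows. The letters TATAAA of a core promoter element, present on either strand in 13.6% of windows, were found for Cxcr4, Fpr1 and Fpr2. The capitals below mark them in the Cxcr4 window, where matches on both strands overlap, and the Fpr1 and Fpr2 windows are not printed. The Cxcr4 window had 20 CpG dinucleotides and 59.3% G and C, against 5 and 54.3% for Cx3cr1 and a median of 52.7% G and C over all windows. Ccrl2 has 3 annotated starts, of which the outermost is printed, with 6 CpG dinucleotides and 53% G and C, and the other windows have 8 and 52% each.
Cxcr4, chr1:128592250-128592549, minus strand, GRCm38.p6: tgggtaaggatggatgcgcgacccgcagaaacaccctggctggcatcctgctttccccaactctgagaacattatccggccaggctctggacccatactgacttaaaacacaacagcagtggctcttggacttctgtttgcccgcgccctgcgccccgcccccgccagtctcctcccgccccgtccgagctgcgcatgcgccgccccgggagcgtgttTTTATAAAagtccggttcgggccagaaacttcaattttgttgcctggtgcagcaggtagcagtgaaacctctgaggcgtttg
Cx3cr1, chr9:120068247-120068546, minus strand, GRCm38.p6: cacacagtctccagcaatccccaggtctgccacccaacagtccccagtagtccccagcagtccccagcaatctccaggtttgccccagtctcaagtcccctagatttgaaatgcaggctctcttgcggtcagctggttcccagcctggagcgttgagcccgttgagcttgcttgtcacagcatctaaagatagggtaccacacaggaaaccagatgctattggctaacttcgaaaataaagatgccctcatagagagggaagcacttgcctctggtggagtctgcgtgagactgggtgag
Ccrl2, chr9:111057469-111057768, minus strand, GRCm38.p6: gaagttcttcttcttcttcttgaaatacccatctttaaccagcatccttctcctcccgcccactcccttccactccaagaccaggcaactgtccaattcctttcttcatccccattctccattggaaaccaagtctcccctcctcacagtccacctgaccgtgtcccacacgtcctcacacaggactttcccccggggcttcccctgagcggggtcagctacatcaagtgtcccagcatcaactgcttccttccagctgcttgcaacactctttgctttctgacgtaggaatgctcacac

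Other chemokine and formyl peptide receptor genes were mostly rare or at 0. Of 22 listed, 8 were at 0 in every library and 4 could be tested, of which 2 rose, where 31.1% of all tested genes rose and 29.7% fell. None of the 4 fell by edgeR, also at an unadjusted p under 0.05 and by DESeq2. Ccr10, a receptor for Ccl27 and Ccl28, had 10.3 and 12.3 CPM in the mimic libraries against 4.57 and 5.11 CPM in the control libraries (log2 fold change 1.23 ± 0.24, adjusted p = 0.00046 by edgeR). Cxcr5, the receptor for Cxcl13 on B cells, had 7.48 and 8.56 CPM in the mimic libraries against 2.08 and 3.91 CPM in the control libraries (log2 fold change 1.42 ± 0.31). Ccr9, named after its values were seen, had 6 and 7 counts in the mimic libraries and 0 in both control libraries, at least 3.29-fold higher. The median of the 4 tested genes was 1.14.

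Of 12 tested ligands of the 8 receptors, 6 were higher and 4 lower, where 31.1% of all tested genes were higher and 29.7% lower, and their median log2 fold change was 0.35 beside 0.04 over all tested genes. DESeq2 called 4 of the ligands higher and 4 lower. Among those of Ccr1, Ccl3 and Ccl5 rose and Ccl6 fell. Another ligand gene of Ccr1, Ccl9, given outside the rule for named genes, was not called (log2 fold change −0.17 ± 0.18). Ccl3 had 291 and 353 CPM in the mimic libraries against 67.5 and 65.6 CPM in the control libraries, and Ccl5 had 11.6 and 12.2 CPM in the mimic libraries against 3.74 and 3.69 CPM in the control libraries. Ccl6 had 0.832 and 0.926 CPM in the mimic libraries against 8.59 and 15.6 CPM in the control libraries. Ccl7, which binds Ccr1 and Ccr2, rose by 3.21 ± 0.26 on the log2 scale and Ccl4, an attractant of the same family, by 1.46 ± 0.15 (2.07 with gene-length offsets). Ccl2, outside the rule for named genes and given because it is the main ligand of Ccr2, had 60.1 and 60.8 CPM in the mimic libraries against 11.02 and 31.32 CPM in the control libraries. It rose in edgeR (log2 fold change 1.52 ± 0.30, adjusted p = 0.00061), was 2.46 without control replicate 2, and was not called by DESeq2 (adjusted p = 0.053).

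Of 11 other chemoattractant receptors tested, 8 were lower and 2 higher, where 29.7% of all tested genes were lower and 31.1% higher, and their median log2 fold change was −1.12. Gpr183, a receptor for oxysterols, had 2.55 and 3.38 CPM in the mimic libraries against 106 and 120 CPM in the control libraries. S1pr1, the sphingosine 1-phosphate receptor that draws leukocytes into blood, had 21.6 and 19.6 CPM in the mimic libraries against 184 and 219 CPM in the control libraries. The complement receptor gene C5ar1 and the ADP receptor gene P2ry12 fell (log2 fold changes −2.30 and −2.89), whereas C3ar1 rose by 1.19 ± 0.16 and the fatty acid receptor gene Gpr84 by 1.30 ± 0.27. Gpr84 was not called by DESeq2 and was 2.045 without control replicate 2. With library size alone 5 rather than 8 of these receptors were lower, and DESeq2 called 1 rather than 2 higher.

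Genes of the signalling machinery below the receptors were lower in 17 and higher in 7 of 31 tested cases, where 29.7% of all tested genes were lower and 31.1% higher, and their median log2 fold change was −0.61. Rgs2 and Rgs10, which speed the shut-off of G proteins, both fell. Rgs2 had 20.9 and 21.9 CPM in the mimic libraries against 142 and 146 CPM in the control libraries, and Rgs10 had 30.66 and 30.68 CPM in the mimic libraries against 171.9 and 169.8 CPM in the control libraries. The arrestin gene Arrb1 and the phospholipase gene Plcb2 fell as well (log2 fold changes −1.98 and −1.74). Elmo1, part of a Rac activator, rose by 1.61 ± 0.14, the regulator gene Rgs1 by 1.57 ± 0.18 and the receptor kinase gene Grk5 by 1.26 ± 0.23.

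**Figure D4:**
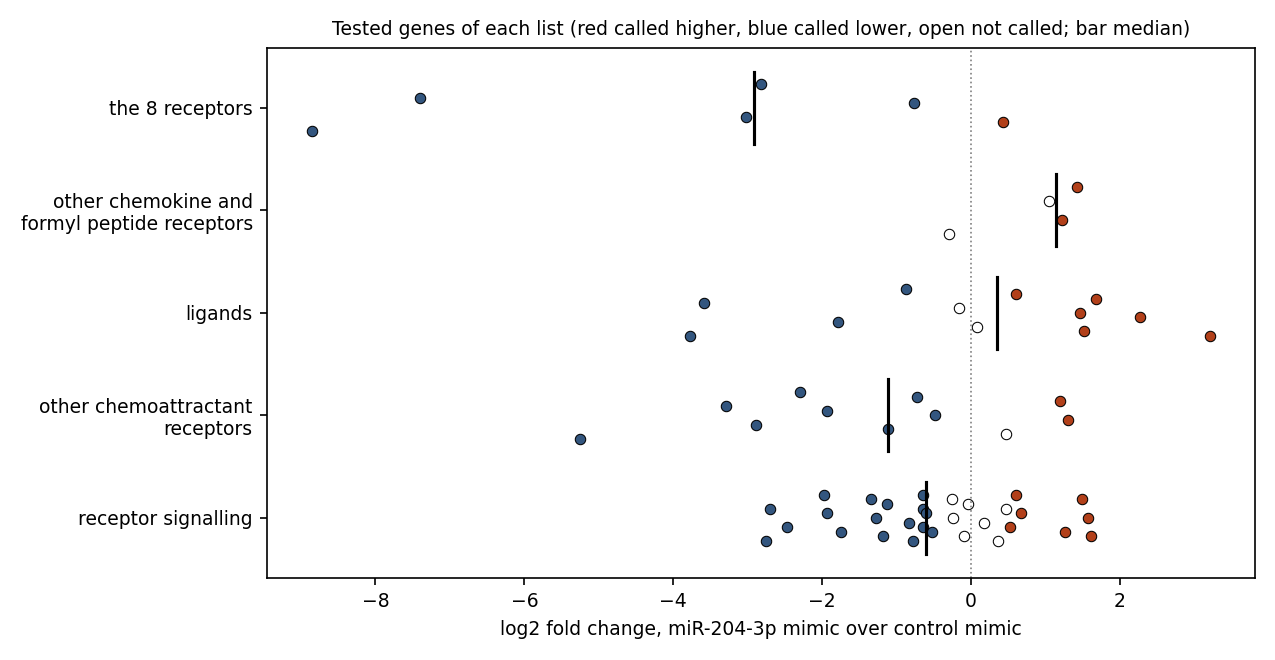
Log2 fold change (miR-204-3p mimic over control mimic) of each tested gene of the 8 receptors, the other chemokine and formyl peptide receptors, the ligands, the other chemoattractant receptors and the signalling genes, with the median of each list as a bar. The medians lie at −2.92, 1.14, 0.35, −1.12 and −0.61, and the point of Fpr2 is a fitted value that is no bound.

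The genes whose profile over the 4 libraries was most like that of Ccrl2 were Nt5c2, Tefm and Lrrc14, at distances of 0.029, 0.0412 and 0.0428 between log2 CPM values centred on each gene's mean, among 11402 genes ranked. Nt5c2, which encodes a cytosolic nucleotidase, had 34.8 and 44.0 CPM in the mimic libraries against 25.9 and 32.5 CPM in the control libraries. For Fpr2 they were Ccl24, BC021767 and Ighj1, at distances of 0.323, 0.581 and 0.638. Ccl24, which encodes the eosinophil attractant eotaxin-2, had 0.104 and 0.109 CPM in the mimic libraries against 12.9 and 23.7 CPM in the control libraries, and BC021767 and Ighj1 were at 0 in both mimic libraries. Fpr2 was at 0 there too, so its distances depend on the prior count of 0.5 and partly restate the shared absence of counts.

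**Figure D5:**
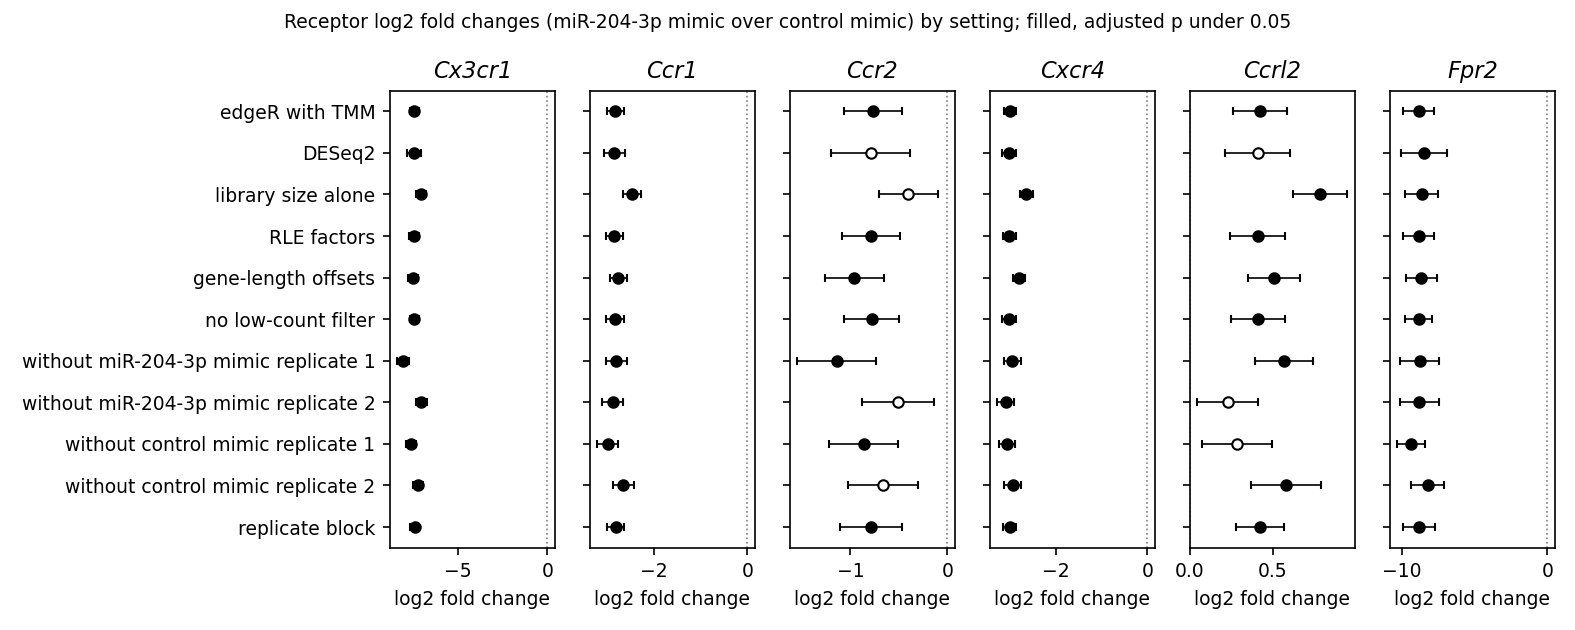
Log2 fold change (miR-204-3p mimic over control mimic) of each tested receptor with its standard error under edgeR with TMM factors and 10 alternatives, on a separate scale per panel; filled points have an adjusted p under 0.05. Points of Cx3cr1, Ccr1, Cxcr4 and Fpr2 are all filled, and those of Ccr2 and Ccrl2 are open under 4 and 3 alternatives.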

How the data were processed

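The submitters' processing notes name HISAT2 and the assembly mm10. Not given in the sources used here are its version, the counting program, the annotation and the strandedness. The authors deposited raw counts per gene, per the file headers, as whole numbers for 54532 genes. Without a stated strand setting, reads of overlapping genes could be mixed. All 8 receptor identifiers were found in GENCODE M21 (GRCm38, the assembly of mm10). Counts were tested in R 4.3.3 with edgeR 4.0.16 (quasi-likelihood F test, two-sided, TMM factors, filterByExpr by group, group as the only term), adjusted by Benjamini-Hochberg over all 13186 tested genes at 0.05. Standard errors were derived from the F statistic. CPM were scaled with TMM factors of 1.14 and 1.13 in the mimic and 0.878 and 0.886 in the control libraries, and levels between genes used the gene length in the deposited table. DESeq2 1.42.0 was an alternative, and both tools were tested on simulated data. Libraries of a group correlated at r = 0.989 (mimic) and 0.987 (control) across genes, and differed by more than sampling noise. Named genes were the 8 receptors and, per list and direction, up to 4 called genes of lowest p. Members and lists were chosen with earlier results of these data known. A comparison of the receptors' proteins was planned and not run. Some genes of the lists are not reported here.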

Additional observations from a re-analysis of the deposited data

How the results depend on the processing

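All 6 tested receptors kept their direction under all 10 alternatives, and Cx3cr1, Ccr1, Cxcr4 and Fpr2 also kept their call. The log2 fold change of Ccr2 was −0.79 with DESeq2 and −0.40 with library size alone, neither called, and −1.14 to −0.51 without 1 library; that of Ccrl2 was 0.41 with DESeq2, not called, and 0.23 to 0.58 without 1 library. The number of receptors called higher was 0 with DESeq2 and 0 to 1 without 1 library. Without the low-count filter 1 of the other chemokine and formyl peptide receptors was lower; DESeq2 called 1 other chemoattractant receptor higher; and with library size alone 5 of them, and 2513 of all tested genes against 3921, were lower, since that scaling put the median over all genes at 0.40 on the log2 scale, beside 0.04 with TMM. The causes of the other changes were not tested. Same-numbered libraries did not deviate together (r = 0.024 over genes), and with the replicate number as a block, which 2 pairs cannot justify, the values of Ccr2 and Ccrl2 were −0.79 and 0.42 and no receptor call changed. Depth limits Ccr7 and Fpr1, with at most 9 counts per group.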
